A study of Mus musculus with 16 samples.

Results

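Small RNA of airway cultures from p73 knockout mice was compared with that of wild-type cultures at day 0, which asks which small RNAs differ between the genotypes at the start of air-liquid interface culture. The cells were primary mouse tracheal epithelial cells grown on porous membranes, which form multiciliated cells once their upper surface meets air. The KO group held 2 libraries at day 0 (replicates 2 and 3) from global p73 knockouts, which lack the gene in every cell, and the WT group held 2 libraries at day 0 (replicates 2 and 3) from wild-type mice. These 4 of the 16 libraries of the study were chosen by genotype and day as the labels give them, and the other 12 were the same genotypes at days 4, 7 and 14. The study's design text calls the replicates independent biological ones, while ages, sexes and litters of the mice are not stated. Because p73 mRNA was not measured in these small RNA libraries, the knockout was not checked here.

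p73, a relative of the transcription factor p53, is known to be needed for multiciliated cells of the airway. MicroRNAs (miRNAs) pair with target mRNAs through their seed, the bases near the 5′ end, and repress them, so miRNAs with one seed share targets. The miR-34 and miR-449 families are known for their part in forming multiciliated cells, whereas miR-205, miR-203, miR-184 and miR-31 are known from basal and stratified epithelium. Small nucleolar RNAs guide the modification of ribosomal and spliceosomal RNA, and most are cut from introns of host genes.

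Mature sequences of some miRNAs named below are given 5′ to 3′ from RefSeq (GRCm38.p6), with the seed, bases 2 to 8, in capitals. None was found there for miR-34c-5p. miR-34a-5p and miR-449a-5p stand for the multiciliated cell miRNAs. miR-99a-5p, miR-100-5p and miR-99b-5p share 1 seed. Each was higher in both KO libraries than in both WT libraries, as were 18.7% of all rows tested, and none was called. miR-183-5p, miR-23a-3p and miR-210-5p are further miRNAs among the smallest p-values.
miR-34a-5p: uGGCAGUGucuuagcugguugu
miR-449a-5p: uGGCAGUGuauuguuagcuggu
miR-34b-3p: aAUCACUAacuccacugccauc
miR-34c-3p: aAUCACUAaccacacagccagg
miR-99a-5p: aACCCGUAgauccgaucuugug
miR-100-5p: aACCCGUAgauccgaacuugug
miR-99b-5p: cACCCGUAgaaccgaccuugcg
miR-183-5p: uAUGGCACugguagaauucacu
miR-23a-3p: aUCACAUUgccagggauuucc
miR-210-5p: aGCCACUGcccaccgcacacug

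The KO libraries held 684413 and 458414 reads and the WT libraries 197497 and 255560 reads, so depth differed with genotype, and its part in the results was not tested. Levels are normalised read counts, the reads divided by 1 size factor per library. miRNAs made up 93.7% and 92.7% of the total in KO and 92.5% and 93.9% in WT. The 13 marker rows of epithelium summed to 35200 and 23622 in KO and 29160 and 17790 in WT. The fibroblast and smooth muscle markers summed to 29.5 and 30.5 in KO and 13.6 and 30.3 in WT. Those of endothelium (2 rows), blood (2 rows) and muscle (1 row) summed to at most 4.73 in any library. Most planned markers of blood and muscle had no row, so these sums do not show that such cells were absent. The WT libraries differed from each other by a median of 0.561 on the log2 scale, more than the KO libraries did (0.368) and more than WT replicate 2 differed from KO replicate 2 (0.466) or replicate 3 (0.416). WT replicate 3 was the lowest library for 107 of the 342 small RNAs tested and the highest for 111, the most of any library at each end.

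No small RNA passed the test between KO and WT at day 0. Of the 1264 rows left after removing repeats, 1229 had day 0 values and 342 reached a value of 10 or more in 2 or more day 0 libraries and were tested. They were 196 miRNAs, 118 small nucleolar RNAs, 16 ribosomal RNAs, 6 small nuclear RNAs, 5 piRNA-annotated RNAs and 1 predicted miRNA. limma on log2(value + 1) called 0 of 342 (0%) at an adjusted p under 0.05, with a lowest adjusted p of 0.266. At an unadjusted p under 0.05 there were 27 (7.89%), of which 16 were higher in KO (4.68%) and 11 lower (3.22%). DESeq2, edgeR and limma-voom on the recovered reads called 0 each, with 9, 22 and 16 at an unadjusted p under 0.05. The authors' deposited table gave adjusted p-values for 410 rows at day 0, the lowest 0.995. Over the 342 rows, 185 had a higher mean log2 value in KO and 157 a lower one, and the median difference was 0.07. Scaling to library totals moved that median to -0.17, a shift of 0.24 downward, with which rows and medians just above 0 turn. Both KO libraries lay above both WT libraries for 64 rows (18.7%) and below both for 55 (16.1%).

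The precision differed with level. The 95% interval of the KO minus WT difference reached a median of 0.94 log2 units to either side. It lay within 2-fold in both directions for 63 rows and within 4-fold for 277. For the 195 rows with a mean under 50, 15 lay within 2-fold, against 32 of the 98 rows between 50 and 500 and 16 of the 49 rows above 500. For the other rows the interval did not leave out a 2-fold difference in at least 1 direction.

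**Figure D1:**
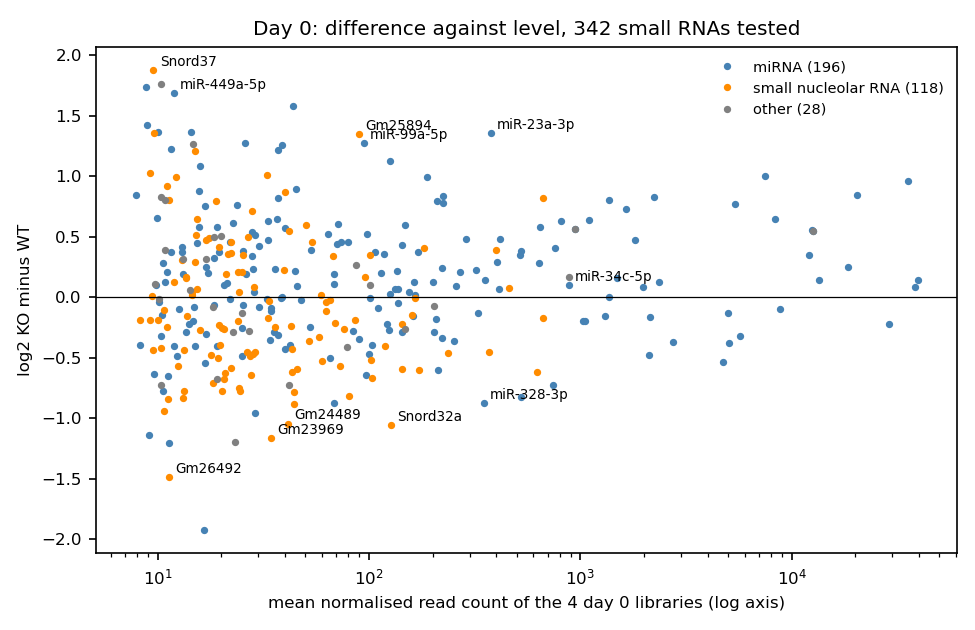
Each point is 1 of the 342 small RNAs tested at day 0, with the mean normalised read count of the 4 libraries on a log axis and the log2 difference KO minus WT on the vertical axis. Of the 31 rows more than 1 log2 unit from 0, 23 lie above and 8 below, and 25 have a mean under 50.

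Of the multiciliated cell miRNAs, miR-34c-5p and miR-34b-3p were close between the genotypes at day 0, and miR-449a-5p had few reads. Of the 9 rows of this list in the table, 7 had day 0 values and 5 were tested. miR-34c-5p (chromosome 9, 51103076 to 51103098, mm10, minus strand) had 982 and 841 in KO and 915 and 783 in WT. The groups overlapped, and the difference was 0.10 (95% interval -0.44 to 0.64), which leaves out a 2-fold change in either direction. miR-34b-3p, from the same cluster (51103574 to 51103595), had 128 and 125.2 in KO and 117 and 131 in WT. The WT libraries enclosed the KO ones, with a difference of 0.03 (95% interval -0.65 to 0.71). miR-34c-3p had 41.4 and 25.04 in KO and 28.8 and 42.5 in WT, and miR-34a-5p (chromosome 4) had 18.9 and 50.1 in KO and 42.3 and 25.5 in WT. For both of these the replicates of 1 genotype spread as widely as the genotypes did. Their 95% intervals, -1.04 to 0.81 for miR-34c-3p and -1.11 to 0.94 for miR-34a-5p, did not leave out a 2-fold lower level in KO. Directions of these 4 rows turned with the scaling or with 1 library left out.

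miR-449a-5p lies in an intron of Cdc20b (chromosome 13, 113037549 to 113037570, plus strand), and had 23.6 and 10.96 in KO and 11.9 and 1.21 in WT. These values rest on 40 and 14 reads in KO and 7 and 1 in WT, and KO replicate 3 lay below WT replicate 2. The difference was 1.69 (95% interval 0.45 to 2.93; limma adjusted p = 0.546). It was 2.96 without WT replicate 2 (adjusted p = 0.0028) and 0.42 without WT replicate 3, so the WT library that remained set the size. With no filter on low values it was the single row past the threshold of 1229 (0.0814%; limma adjusted p = 0.00257). These fits took the spread from all days, and miR-449a-5p had values from 3678 to 5288 at day 14. The spread can thus understate the counting noise of the few day 0 reads. miR-449c-5p of the same list did not pass the filter and lay in the other direction. It had 2.36 and 4.7 in KO and 5.08 and 7.28 in WT, on 4 and 6 reads in KO and 3 and 6 in WT. In bulk cultures, fewer cells of a type and less RNA per cell cannot be told apart.

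The 2 smallest p-values among rows higher in KO belonged to small nucleolar RNAs. Gm25894, in Snhg1 (chromosome 19, 8724251 to 8724325), a host gene of many small nucleolar RNAs, had 147 and 109 in KO and 35.6 and 67.9 in WT. Both KO libraries lay above both WT libraries, with a difference of 1.34 (95% interval 0.57 to 2.12; limma adjusted p = 0.266). Snord37, a box C/D RNA in an intron of the translation elongation factor gene Eef2 (chromosome 10, 81178950 to 81179013), had 14.8 and 16.4 in KO and 3.39 and 3.64 in WT. Its WT values stand for 2 and 3 reads and its KO values for 25 and 21, and the difference was 1.88 (95% interval 0.80 to 2.95; limma adjusted p = 0.266). Snord22, also in Snhg1 (8725866 to 8725991), had 15.4 and 18 in KO and 8.47 and 7.28 in WT. Its difference was 0.99 (limma adjusted p = 0.546). Snord37 and Snord22 passed the filter of 10 through the KO libraries alone, so that their groups were apart follows from the filter.

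The smallest p-value of the 342 was that of Gm23969, lower in KO, which lies within an intron of Rpl7a, a gene of the large ribosomal subunit (chromosome 2, 26911261 to 26911334). It had 23.1 and 18.8 in KO and 44.0 and 52.2 in WT, a difference of -1.17 (95% interval -1.83 to -0.50; limma adjusted p = 0.266). Snord32a, from an Rpl13a intron, had 99.9 and 64.2 in KO and 130 and 215 in WT, at -1.05 and limma adjusted p = 0.546. The groups were apart for both, though WT replicate 3 was further from KO than WT replicate 2 was. Gm24489, in Gas5 (chromosome 1, 161037601 to 161037681), had 26.6 and 26.6 in KO and 55.9 and 55.8 in WT, the closest replicates of these rows, at -1.04 (95% interval -1.86 to -0.23). The annotation places Snord80 at the same position, so reads of the gene names there cannot be told apart.

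Further small nucleolar RNAs lower in KO were Gm26492, with 4.14 and 7.04 in KO and 16.9 and 16.99 in WT, and Gm25506 in Tnpo2, with 20.1 and 15.7 in KO and 30.5 and 30.3 in WT. Scarna3a, a guide RNA of the Cajal body, had 73.3 and 44.6 in KO and 86.4 and 119 in WT. miR-1843b-3p, annotated inside the Scarna3a sequence in an intron of Cop1, had 63.2 and 34.4 in KO and 76.2 and 98.3 in WT. Reads of these overlapping features cannot be told apart. All 4 had both KO libraries below both WT libraries, as had 16.1% of all rows tested, and a limma adjusted p of 0.582. They were picked by p-value in these same libraries, and Gm26492 passed the filter through the WT libraries alone. That their groups were apart is thus no separate result.

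The small nucleolar RNAs of some host genes lay in both directions and those of others in 1. The 8 tested in Snhg1 ran from -0.22 to 1.34 with 5 higher in KO, and the 9 in Gas5 from -1.04 to 0.92 with 5 higher. The 4 in Rpl7a ran from -1.17 to 0.21 with 1 higher, and Gm22879, next to Gm23969, had 29.0 and 32.9 in KO and 55.9 and 59.5 in WT. All 3 tested in each of Rpl13a, Nop58, Nop56, Zfas1 and Rabggtb were lower in KO, with medians from -0.83 in Nop58 to -0.25 in Nop56. Both of these genes encode core proteins of box C/D particles. Of the host genes with 2 tested, both were higher in Gnl3 and in Atg16l1, there by as little as 0.09. Both were lower in Rps12, Ppan and Ncl, and the others had 1 in each direction. Over the class, 48 of 118 were higher in KO, 0 were called and the median was -0.19, beside 185 of 342 and 0.07 over all rows. The class held 2.07% and 2.07% of the total in KO and 2.41% and 2.95% in WT.

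**Figure D2:**
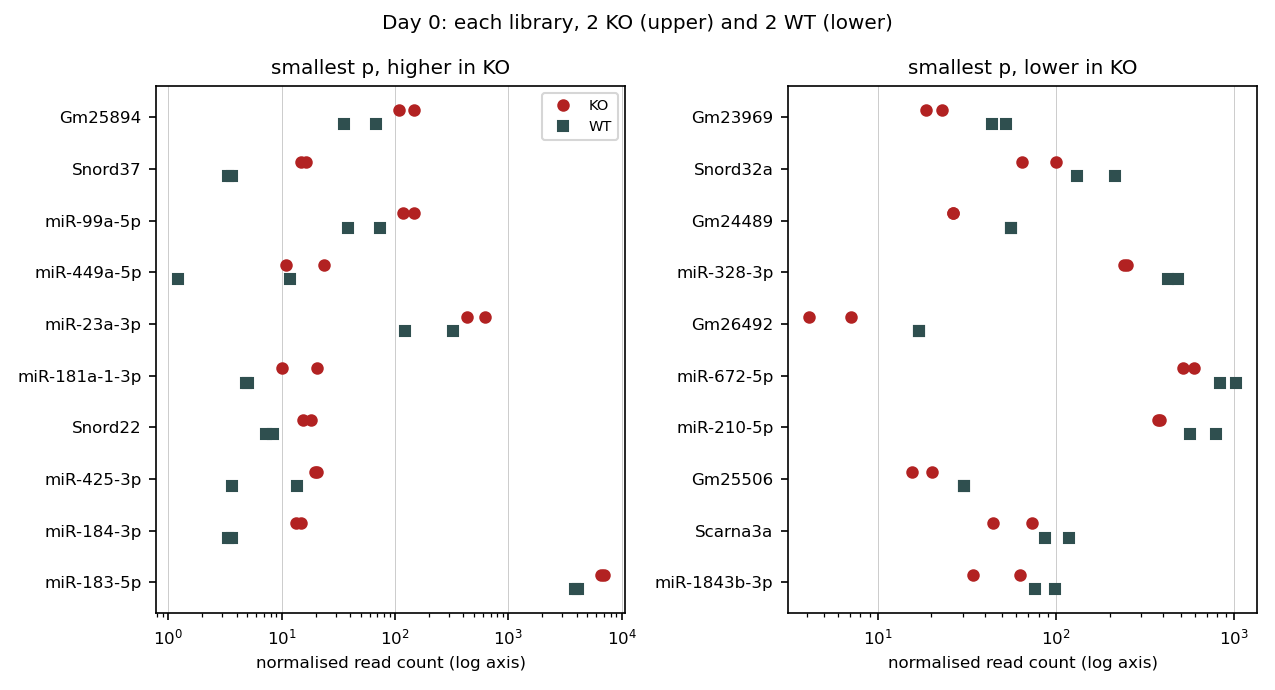
Normalised read counts (log axis) in each day 0 library for the 10 smallest p-values in each direction, with the 2 KO libraries as circles above the 2 WT libraries as squares. KO and WT are apart in 19 of the 20 rows, and overlap for miR-449a-5p, whereas they overlap in 65.2% of all rows tested. The rows were picked by p-value in these same libraries, so that they are apart follows from the choice.

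miR-99a-5p had the smallest p-value of the miRNAs. It is a member of the miR-99 and miR-100 family, known to repress Mtor, and lies in an intron of Mir99ahg (chromosome 16, 77598940 to 77598961). It had 146 and 118 in KO and 74.5 and 38.8 in WT. Both KO libraries lay above both WT ones, with a difference of 1.27 (95% interval 0.47 to 2.07; limma adjusted p = 0.361). It passed without WT replicate 2 (1.73, limma adjusted p = 0.0456) and was at 0.81 without WT replicate 3 (limma adjusted p = 0.641). Of the 10 tested rows of its list, which joins miR-99 and miR-100 with the miR-125 arms, 9 were higher in KO, of which miR-99b-3p (0.21) and miR-125a-5p (0.14) turn with library totals, 0 were called, and the median was 0.79. Both KO libraries lay above both WT libraries for 6 of the 10, beside 18.7% of all rows tested.

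Rows of this family and their let-7 cluster neighbours differed in how far they lay from 0. In the chromosome 16 cluster, let-7c-5p, whose mature sequence also has another locus, had 76.8 and 73.6 in KO and 105 and 132 in WT, at -0.64, so it lay on the other side of 0 from its neighbour miR-99a-5p. In the chromosome 9 cluster, within 3110039I08Rik, miR-100-5p had 236 and 117 in KO and 71.1 and 80.1 in WT, at 1.13, and miR-125b-1-3p had 324 and 215 in KO and 151 and 153 in WT, at 0.80. Both were apart from WT in all libraries, yet KO replicate 2 was well above KO replicate 3 for each. In the chromosome 17 cluster, within Spaca6, miR-99b-5p had 62527 and 32284 in KO and 18637 and 28606 in WT, at 0.96 (95% interval -0.32 to 2.24). Its neighbours let-7e-5p and miR-125a-5p, the most abundant small RNA at day 0, were at -0.13 and 0.14, with groups that overlapped.

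Other miRNAs among the 10 smallest p-values higher in KO came from several clusters. miR-23a-3p (chromosome 8, 84208563 to 84208583) had 627 and 429 in KO and 329 and 124 in WT, at 1.36 (limma adjusted p = 0.546). It was 2.06 without WT replicate 2 (limma adjusted p = 0.0456) and 0.66 without WT replicate 3 (limma adjusted p = 0.825). Its cluster neighbours miR-27a-3p and miR-24-2-5p overlapped between the groups at 0.19 and 0.37. All 6 tested rows of the miR-23, miR-27 and miR-24 clusters were higher in KO, miR-27a-3p by less than 0.24, with a median of 0.41, and WT replicate 3 had the lowest sum, 8792, against 15824 and 15552 in KO and 15702 in WT replicate 2.

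miR-183-5p, of a cluster known from sensory organs, had 6984 and 6588 in KO and 4119 and 3857 in WT (chromosome 6, 30169711 to 30169732). Its replicates were close and the groups apart, at 0.77 (95% interval 0.10 to 1.43; limma adjusted p = 0.582). miR-182-5p of the same cluster had 13454 and 15563 in KO and 14308 and 6809 in WT, so WT replicate 2 lay between the KO libraries. All 4 tested rows of the cluster were higher in KO, with a median of 0.59.

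miR-184-3p, known from corneal and stratified epithelium, had 14.8 and 13.3 in KO and 3.39 and 3.64 in WT, on 25 and 17 reads in KO and 2 and 3 in WT. The difference was 1.73 (95% interval 0.31 to 3.16; limma adjusted p = 0.570). miR-31-5p, a keratinocyte miRNA, had 2203 and 1877 in KO and 1445 and 1042 in WT, at 0.73. For miR-184-3p, which passed the filter through the KO libraries alone, groups that are apart follow from the filter. miR-31-5p was apart from WT. miR-205-5p, the most abundant of the basal list, overlapped with 18200 and 10481 in KO and 15052 and 10385 in WT, at 0.14. Of the 5 tested rows of this list 4 were higher in KO (miR-205-5p not with library totals), with a median of 0.73, and miR-203-3p, known from the suprabasal skin layers, was lower at -0.32.

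miR-425-3p had 20.7 and 19.6 in KO and 13.6 and 3.64 in WT, at 1.36. That was 2.19 without WT replicate 2 (limma adjusted p = 0.0456) and 0.54 without WT replicate 3 (limma adjusted p = 0.871). miR-191-5p, encoded beside it, was at 0.25 with groups that overlapped. miR-181a-1-3p had 10.1 and 20.4 in KO and 5.08 and 4.85 in WT, at 1.36, and passed the filter through the KO libraries alone. The 3 tested rows of miR-221 and miR-222 were each above WT in both KO libraries, from 0.38 to 1.26, as were 18.7% of all rows tested. The largest was miR-221-5p, with 54.4 and 54.8 in KO and 27.1 and 18.2 in WT (95% interval -0.01 to 2.53).

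Fewer miRNAs stood among the small p-values on the lower side. miR-328-3p (chromosome 8, 105308379 to 105308400, minus strand) had 252 and 240 in KO and 423 and 482 in WT, at -0.87 (95% interval -1.57 to -0.18; limma adjusted p = 0.546). miR-672-5p, in an intron of Nexmif on chromosome X, had 597 and 519 in KO and 832 and 1018 in WT, at -0.72. Both were apart from WT with replicates close in KO.

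miR-210-5p, an arm of the hypoxia-induced miR-210 (chromosome 7, 141221445 to 141221466), had 382 and 372 in KO and 564 and 789 in WT, at -0.82 (95% interval -1.58 to -0.07; limma adjusted p = 0.582). The more abundant arm, miR-210-3p, had 1185 and 761 in KO and 1074 and 1096 in WT. The WT values of that arm lay between the KO ones, at -0.19; a difference between the arms was not tested.

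The remaining lists lay nearer to 0 or followed 1 library. The let-7 family (7 of 12 higher, median 0.04), the miR-200 family of epithelial identity (6 of 8, median 0.13), the miR-30 family (4 of 8, median 0.05) and the p53 family targets (8 of 11, median 0.16) all had a median below 0 with scaling to library totals. The miR-17 and miR-92 clusters, linked to proliferation, had 5 of 11 higher and a median of -0.01. In the miR-200 family, miR-200b-3p had 11715 and 8631 in KO and 7809 and 5295 in WT, apart at 0.64, and miR-429-3p had 2858 and 2290 in KO and 3143 and 662 in WT. The second of these was low in WT replicate 3 alone.

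The 3 tested rows of the miR-15 and miR-16 family were higher in KO with a median of 0.39, and the 5 inflammation miRNAs had 3 higher and a median of 0.37, with miR-21a-5p at 2190 and 1967 in KO and 2048 and 1091 in WT. The secretory and neuroendocrine miR-375-3p had 345 and 127 in KO and 283 and 256 in WT, at -0.36. The 3 tested rows of the imprinted Dlk1-Dio3 cluster had a median of 0.63 with overlapping groups, and for miR-127-3p KO replicate 3 (197) was above KO replicate 2 (54.4) by more than WT replicates differed (127 and 49.7). No row of any list was called in limma.

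Over the classes, 121 of 196 miRNAs were higher in KO with a median of 0.14, which became -0.10 with scaling to library totals. The 6 small nuclear RNAs were higher in KO with a median of 0.44, though Gm24265 (0.06) and Rnu12 (0.11) lay within 0.24 of 0, the 16 ribosomal RNA rows were even at 8 higher and a median of 0.04, and 2 of the 5 piRNA-annotated rows were higher. 

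**Figure D3:**
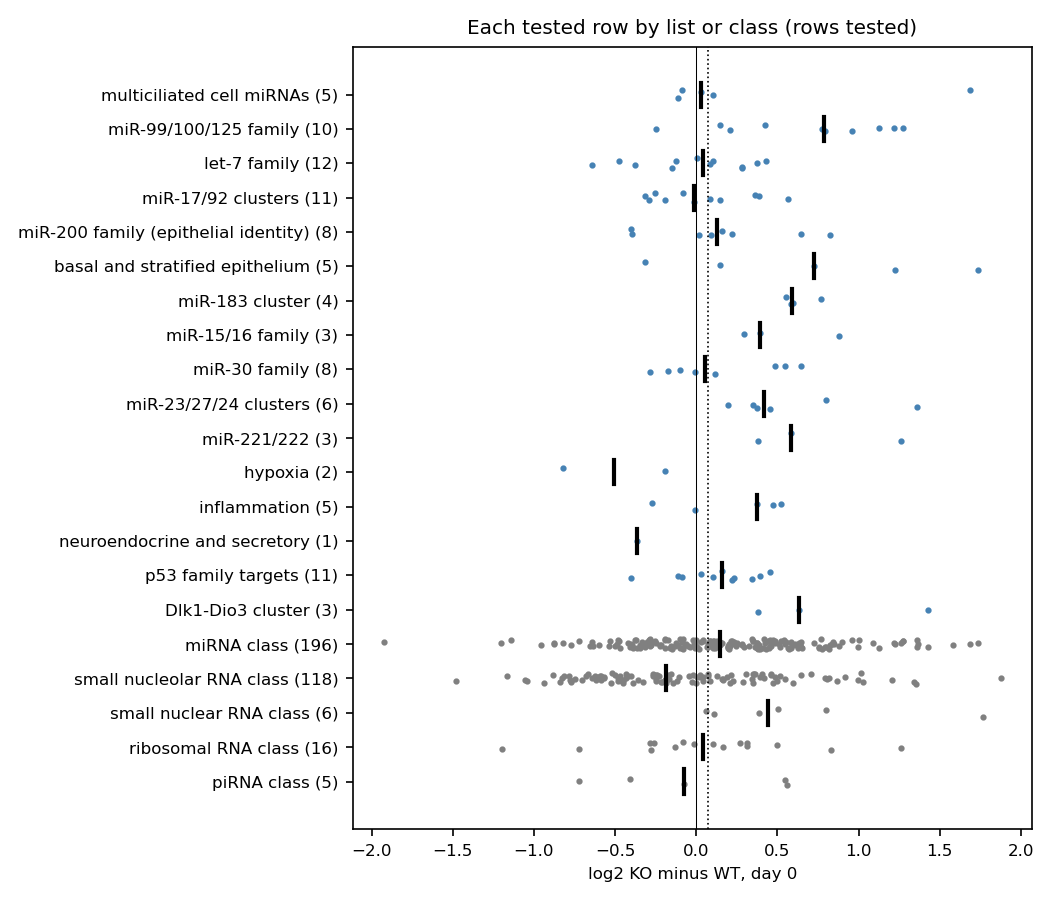
Each point is a tested row, placed by its log2 difference KO minus WT at day 0 and grouped by list (blue) or RNA class (grey), with the number of rows in parentheses. Black bars are medians and the dotted line is the median of all rows, 0.07; the list that joins miR-99 and miR-100 with miR-125 has the highest median, 0.79.

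Of the 10 most abundant rows, 8 had groups that overlapped, beside 65.2% of all rows tested. miR-92a-3p had 41857 and 36758 in KO and 37638 and 36452 in WT, and miR-125a-5p had 43443 and 38867 in KO and 30338 and 45596 in WT. miR-151-3p had 25709 and 26693 in KO and 23742 and 39289 in WT, at -0.22 with groups that overlapped. The groups did not overlap for miR-99b-5p, given above, and for miR-10a-5p, with 24533 and 25304 in KO and 23457 and 8175 in WT. WT replicate 2 lay just below the KO libraries and WT replicate 3 far below. The difference was 0.85 (95% interval -0.03 to 1.72), at 0.09 without WT replicate 3 and 1.61 without WT replicate 2.

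Leaving out WT replicate 2, the shallowest library, changed the count of calls. limma then called 10 of 327 rows (3.06%), all higher in KO, against a single WT library that was taken to vary like the other groups. They were miR-449a-5p, miR-22-3p, miR-429-3p, miR-10a-5p, miR-99a-5p, miR-425-3p, miR-30a-5p, miR-23a-3p, miR-186-5p and miR-421-3p. WT replicate 3 was the lowest of the 4 libraries for all 10. miR-22-3p, for example, had 10706 and 7670 in KO and 9354 and 2177 in WT, so WT replicate 2 lay within the KO values. Leaving out any other single library gave 0 calls.

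Rows read in 1 genotype only were near the limit of detection. There were 68 rows with reads in both KO libraries and none in WT, and 19 with reads in both WT libraries and none in KO. The KO libraries were the deeper ones. The most reads of such a row were 16, over both KO libraries for miR-31-3p, and 4, over both WT libraries for miR-7041-5p.

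Whether the genotype difference at day 0 differed from that at day 14 was tested in the same fit over the 279 rows that passed the filter on both days. limma called 0 of 279 (0%), with 52 at an unadjusted p under 0.05 (18.6%). miR-34c-5p had the smallest p-value, with 1112 and 1227 in KO and 4000 and 3288 in WT at day 14. The difference KO minus WT was -1.63 at day 14 and 0.10 at day 0, a change of -1.74 (95% interval -2.51 to -0.96; limma adjusted p = 0.0727). KO lay far below WT at day 14 and within the WT range or above it at day 0. For miR-34b-3p the differences were -1.81 at day 14 and 0.03 at day 0 (limma adjusted p = 0.0855), and for miR-34c-3p -2.34 and -0.12 (limma adjusted p = 0.124).

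miR-99a-5p, apart in the KO direction at day 0, lay on the other side of 0 at day 14, with 116 and 92.3 in KO and 175 and 221 in WT. The difference was -0.92 at day 14 and 1.27 at day 0, a change of -2.19 (95% interval -3.32 to -1.07; limma adjusted p = 0.0855). miR-210-5p did the reverse, with 117 and 102 in KO and 49.2 and 54.9 in WT at day 14, at 1.06 there and -0.82 at day 0 (limma adjusted p = 0.124). Both miR-99a-5p and miR-210-5p were picked by their day 0 p-values. The change contains that same day 0 difference, so its size follows in part from the choice. For miR-34a-5p the differences were -0.54 at day 14 and -0.09 at day 0. Without WT day 0 replicate 2, 12 of 273 rows passed (4.4%), among them miR-34c-5p, miR-99a-5p and miR-210-5p. The others were miR-449a-5p, miR-10a-5p, miR-22-3p, miR-429-3p, miR-23a-3p, miR-425-3p, miR-186-5p, miR-182-5p and the piRNA-annotated row DQ562379. For these, miR-34c-5p and miR-99a-5p, the WT day 0 library left, replicate 3, was the lowest at day 0, and for miR-210-5p the highest. The change became -3.14 for miR-449a-5p and -2.50 for miR-10a-5p, from -1.87 and -1.74 with all libraries. Scaling to library totals called 14 of 279 (5.02%), all with a higher difference at day 14, and moved the median of all rows to 0.56. With that scaling the change was -1.13 for miR-34c-5p, -1.23 for miR-34b-3p, -1.64 for miR-34c-3p and -1.59 for miR-99a-5p. Each of these was smaller in size than in the main fit. For miR-210-5p it was 2.49, up from 1.88.

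**Figure D4:**
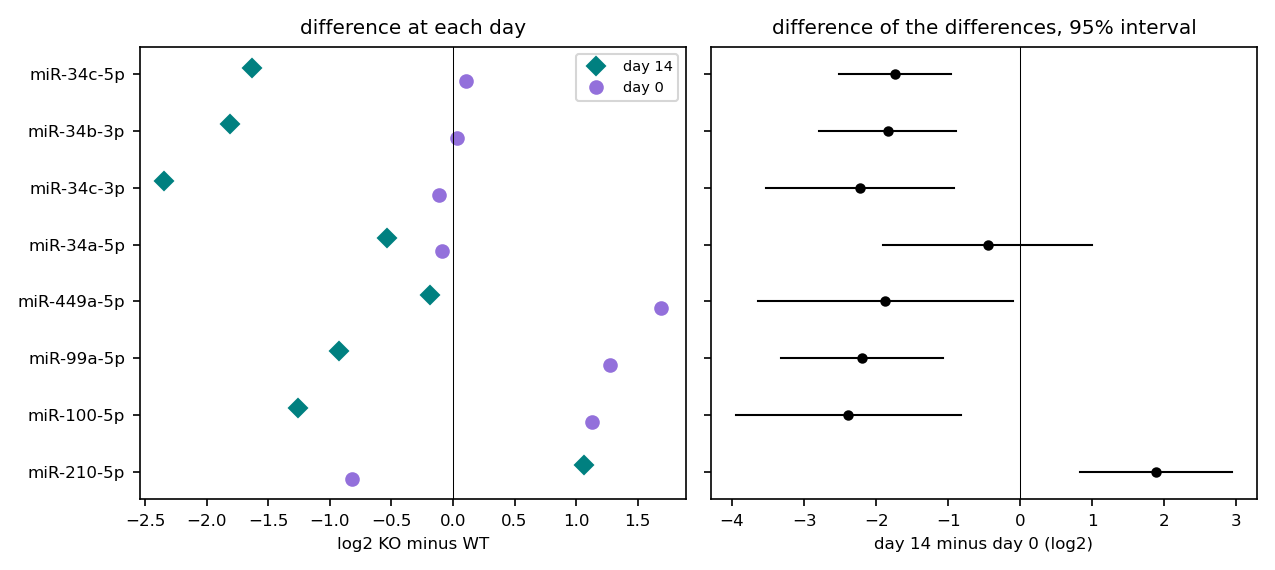
The left panel gives the log2 difference KO minus WT at day 14 (diamonds) and day 0 (circles) for 8 miRNAs, and the right panel the day 14 minus day 0 change with its 95% interval. The 3 rows of the miR-34b and miR-34c cluster lie near 0 at day 0 and between -2.34 and -1.63 at day 14. miR-449a-5p lies at -0.19 at day 14.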

How the data were processed

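The authors deposited a table headed as read counts for 1269 small RNAs, whose values are a normalised signal, whole reads divided by a size factor within each day. Dividing by the smallest step of each library gave back reads, and 100% of nonzero day 0 values were whole within 0.0055. The second table deposited by the authors gives log2 fold changes and adjusted p-values. The submitters' processing notes name DESeq2 and mm10; the aligner and the counting are not stated. The planned fit for counts was replaced by the one planned for normalised values: limma 3.58.1 (R 4.3.3) with variance trend on log2(value + 1), a pseudocount of 1, all 16 libraries in 8 groups, Benjamini-Hochberg over 342 rows, threshold 0.05. A fold change on this scale understates that of low rows. For 69 rows lacking values at other days the fit used fewer libraries. 5 predicted rows repeating a named miRNA were left out. Alternatives were edgeR 4.0.16, DESeq2 1.42.0, limma-voom, other scalings, filters, pseudocounts, robust shrinkage, replicate blocks and leaving out libraries. The named rows were the 10 smallest p-values in each direction, the multiciliated list, the most abundant and members of described lists. miR-22-3p, miR-429-3p, miR-186-5p, miR-421-3p and Gm22879 were named after their values were seen. Members and lists were chosen with earlier results of these data known. Mature sequences were found in RefSeq for 178 of 196 miRNAs. Scripts were tested on simulated data. PCR reads are not independent molecules, and p-values measure the spread between these libraries.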

Additional observations from a re-analysis of the deposited data

How the results depend on the processing

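Of the 21 alternatives to the day 0 comparison, all gave 0 calls except no filter on low values (1) and leaving out a library, which gave 0 to 10. For day 14 minus day 0 the count was 14 with library totals and 0 to 12 with a library left out, while a replicate block gave 0 for both comparisons; same-numbered day 0 libraries deviated from their group means with a correlation of -0.03, so the numbers were not taken as pairs, and the block had 35 rows at an unadjusted p under 0.05 in place of 27. Of the 21 lists and classes, 16 had a median above 0, and 9 with library totals. The following named rows, none past the threshold with all libraries, turned direction. Leaving out 1 library gave -0.071 to 1.17 for miR-30a-5p, -0.23 to 1.86 for Gm26202, -0.0655 to 1.07 for Gm26316, -0.58 to 0.14 for miR-151-3p, -0.73 to 0.21 for n-R5s209, -0.21 to 0.54 for n-R5s2, -0.0093 to 0.22 for miR-34c-5p, -0.15 to 0.44 for miR-125a-5p, -0.25 to 0.54 for miR-205-5p, -0.011 to 0.18 for miR-92a-3p, -0.47 to 0.24 for miR-34c-3p, -0.77 to 0.59 for miR-34a-5p, -0.0513 to 0.11 for miR-34b-3p and -0.33 to 0.45 for Gm24265. Library totals gave -0.077 for n-R5s2, -0.14 for miR-34c-5p, -0.10 for miR-125a-5p, -0.10 for miR-205-5p, -0.16 for miR-92a-3p, -0.21 for miR-34b-3p and -0.17 for Gm24265. Factors from miRNAs gave -0.043 for miR-34b-3p and -0.009 for Gm24265. For miR-34a-5p DESeq2 gave 0.0033, edgeR 0.065 and TMM factors 0.0175, and for Gm24265 DESeq2 gave -0.029 and limma-voom -0.0799. For day 14 minus day 0, leaving out 1 library gave -0.0585 to 0.66 for Snord32a and -1.13 to 0.23 for miR-34a-5p, and library totals 0.22 for Snord22 and 0.14 for miR-34a-5p. The cause was not tested.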

Other observations

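The piRNA-annotated row DQ562379 had 22901 and 20068 reads in KO and 8476 and 5718 in WT, and miR-182-5p had 22767 and 19888 in KO and 8448 and 5612 in WT, so the reads differed by at most 1.85% in any library. DQ695413 and miR-25-3p differed by at most 0.216%. The piRNA class held 3.67% and 4.86% of the total in KO and 4.70% and 2.59% in WT, and without these rows 0.0923% and 0.129% in KO and 0.110% and 0.171% in WT.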
